A study of Mus musculus with 8 samples.

Results

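A set of 10 genes that encode growth and survival cytokines for blood cells was followed in mouse colon fibroblasts with and without irradiation, out of 55573 genes counted in every library. The list was fixed by name: Csf1, Csf2, Csf3, Kitl, Il34, Il7, Il15, Tslp, Tnfsf11 and Tnfrsf11b. Each symbol matched 1 Ensembl identifier. The libraries were polyA RNA of fibroblasts from the C57BL6/J strain, kept as flat cultures on plastic in Advanced DMEM F12 with 10% FBS. All 8 libraries came from cells exposed to APTKA conditioned medium, a name that the labels leave unexplained, so the irradiated cells and their controls share that exposure and no culture without it was among the samples. The non-irradiated group had 4 libraries (I to IV), and the irradiated group had 4 libraries (I to IV) from cells given 3 fractions of 2 Gy. Collection took place 72 hours after the first fraction. The labels give no age, sex or number of animals, and do not say whether the libraries stem from separate cultures, so that the p-values below describe the spread between these libraries, which may be technical.

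Stromal cells feed leukocytes and their precursors through a small set of secreted or membrane-bound cytokines. Csf1 and Il34 are separate ligands of the receptor Csf1r and maintain macrophages, Csf2 and Csf3 act on granulocyte and macrophage precursors, and Kitl (stem cell factor) binds Kit on mast cells, progenitors and the pacemaker cells of the gut. Il7, Il15 and Tslp act on lymphocytes, innate lymphoid cells and dendritic cells. Tnfsf11 (RANKL) drives osteoclasts and the M cells of the gut epithelium, and Tnfrsf11b (osteoprotegerin) is a soluble decoy receptor that binds it. Csf1 and Kitl are made in secreted and membrane-anchored forms through splicing, and counts per gene do not separate those forms.

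Promoters and AU-rich elements are shown because they mark how differently the members are built. The first is the RefSeq promoter window (GRCm38.p6, 250 bases before to 50 after the start) of Csf1, the sole member called in the test of all genes, and of Kitl, the member next to the threshold. An entry was found for 4 of the 10 members, Csf1, Csf2, Kitl and Tnfsf11. The start is that of the RefSeq entry and can differ from the GENCODE M21 start. For Csf2 the window (chr11:54249850-54250149) lies wholly upstream of the GENCODE gene (chr11:54247271-54249667, minus strand). It therefore leaves out the bases next to that start. For Kitl the window begins at 100015571, a short way before the GENCODE start at 100015630. Both strands were searched for the NF-kB core motif GGANTTTCC and the AP-1 motif TGANTCA, neither of which overlaps the other in these windows. Capitals mark a match.
Csf1, chr3:107760420-107760719, minus strand: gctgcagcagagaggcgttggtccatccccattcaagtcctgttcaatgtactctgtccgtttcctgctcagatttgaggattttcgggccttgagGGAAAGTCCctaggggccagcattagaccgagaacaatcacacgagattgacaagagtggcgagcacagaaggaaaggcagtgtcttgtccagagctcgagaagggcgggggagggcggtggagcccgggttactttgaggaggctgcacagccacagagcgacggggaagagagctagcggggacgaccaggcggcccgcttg
Kitl, chr10:100015571-100015870, plus strand: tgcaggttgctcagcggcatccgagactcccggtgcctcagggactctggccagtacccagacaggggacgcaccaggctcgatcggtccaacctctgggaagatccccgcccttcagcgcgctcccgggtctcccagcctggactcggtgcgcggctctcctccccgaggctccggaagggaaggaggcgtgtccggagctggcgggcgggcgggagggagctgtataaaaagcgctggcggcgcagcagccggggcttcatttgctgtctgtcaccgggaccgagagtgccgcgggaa
The Csf1 window held 1 match to the NF-kB motif, written GGAAAGTCC on the strand shown, which matches its reverse complement, and the windows of Csf2, Kitl and Tnfsf11 held none. Of all 32851 promoter windows of the same length, 1.25% held that motif and 7.81% held the AP-1 motif. None of the 4 windows had a match to the AP-1 motif, which for Csf2 says nothing of the bases next to the GENCODE start. The windows also differed in base composition, with 16 CpG dinucleotides in Csf1, 28 in Kitl, 3 in Csf2 and 7 in Tnfsf11. A match describes letters in a window and shows no binding.

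The second is the AU-rich element, a run of the pentamer ATTTA in the untranslated end of an mRNA, to which decay factors such as tristetraprolin bind. The densest stretches of 30 bases in Csf2 and Csf3 are shown, the members whose elements lie closest together, with pentamers in capitals (GENCODE M21 transcripts, GRCm38).
Csf2, chr11:54247325-54247354, minus strand: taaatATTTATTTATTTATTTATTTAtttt
Csf3, chr11:98702995-98703024, plus strand: tatctctATTTAatATTTAtgcatATTTAa
Csf2 carried 9 pentamers in a 3′ UTR of 317 bases and Csf3 carried 6 in 669 bases. The stretch of Csf2 holds 4 overlapping copies of the longer nonamer TTATTTATT, searched on the transcript strand, and none of the other 9 members had that nonamer. Among 999 tested genes with a 3′ UTR within 20% of the length of that of Csf2, 2.90% had it. Kitl had 14 pentamers in 4435 bases and Csf1 4 in 2111 bases, beside medians of 7 and 3 in tested genes with UTRs of like length.

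Total counts ran from 28731227 to 37157216 per library. Within each group every pair of libraries differed by more than counting noise (chi-square over its degrees of freedom at least 5.12), and each was kept as a replicate. Irradiated I and II stood apart by their mitochondrial rRNA, which took 15129 and 15263 CPM against 4178 to 5934 CPM in the other 6 libraries (CPM, counts scaled to the size of the library), and results that rest on them are given with and without them. Fibroblast markers were abundant, with 11 markers summing to 15800 to 18585 CPM (from here on with TMM factors) without irradiation and to 14379 to 15672 CPM after it. Of these 11 markers, 2 were called lower by edgeR, Col1a2 (log2 fold change -0.24) and Vim (-0.14), where 4.15% of all tested genes were. Dcn (0.06), Lum (0.10) and Pdpn (0.08) had positive log2 fold changes and were not called. The remaining fibroblast markers had negative log2 fold changes and were not called. The 6 smooth muscle and pericyte markers summed to 355 to 382 CPM without and 308 to 357 CPM with irradiation, mostly from Actg2. Actg2, a smooth muscle actin, was called lower (log2 fold change -0.20, edgeR adjusted p = 0.0263). Myh11 (0.12), Des (0.24), Cspg4 (0.47) and Mcam (0.09) had positive log2 fold changes and were not called, and Rgs5 was not tested. The part of these markers in the results below was not tested. Several defining markers of the cells that answer to these cytokines were near or at 0. Ptprc, present on all leukocytes, had 6 counts over all libraries, Cd3e 1, the mast cell protease gene Cpa3 0 and the epithelial gene Epcam 4. Of the other epithelial markers, Krt19 had 153 counts, Vil1 72 and Cdh1 61. The 8 epithelial markers summed to 0.731 to 1.97 CPM without and 0.969 to 1.55 CPM with irradiation. The 8 myeloid markers summed to 11.4 to 14.5 CPM without and 13.5 to 14.8 CPM with irradiation, nearly all of it from Cd14 and Cd68, and none of the 8 was called. The 8 markers of T cells and innate lymphoid cells summed to 6.17 to 7.74 CPM without and 6.49 to 7.60 CPM with irradiation, mostly from Lck (1466 counts over all libraries) and Gata3 (306 counts), with Cd3g and Cd2 at 0. The 3 markers of the interstitial cells of Cajal, the pacemaker cells, summed to 8.69 to 10.6 CPM without and 7.93 to 9.78 CPM with irradiation, nearly all from Etv1 (2346 counts), while Kit had 14 counts. None of the lymphoid or Cajal markers was called. In bulk RNA, fewer cells of a type and less RNA per cell cannot be told apart.

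Among the mRNAs of the 10 members, Csf1 had by far the highest level. Other cytokines are outside this comparison, and mRNA counts do not measure secreted protein. Per kilobase of exon, the scale on which genes can be compared with each other, Csf1 stood at 427 ± 7.94 CPM per kb without irradiation and 467 ± 13.5 CPM per kb with it (SD, n = 4). Averaged over both groups, this placed it at rank 27 of 15255 tested genes with a known length. Csf1 made up 91.7% of the summed level of the 10 members without irradiation and 92.8% with it. Kitl came next at 18.4 ± 0.853 CPM per kb, so that Csf1 exceeded it 23.2-fold, followed by Csf2 at 9.09 ± 0.758 CPM per kb. Tslp stood at 3.65, Il34 at 2.46, Il15 at 1.79, Tnfrsf11b at 1.51, Csf3 at 1.04, Il7 at 0.814 and Tnfsf11 at 0.110 CPM per kb, all without irradiation. In the non-irradiated group no neighbours in that order overlapped over the 4 libraries. In the irradiated group the order was the same, but the ranges over the 4 libraries overlapped between Tslp and Il34, between Il15 and Tnfrsf11b and between Tnfrsf11b and Csf3.

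**Figure D1:**
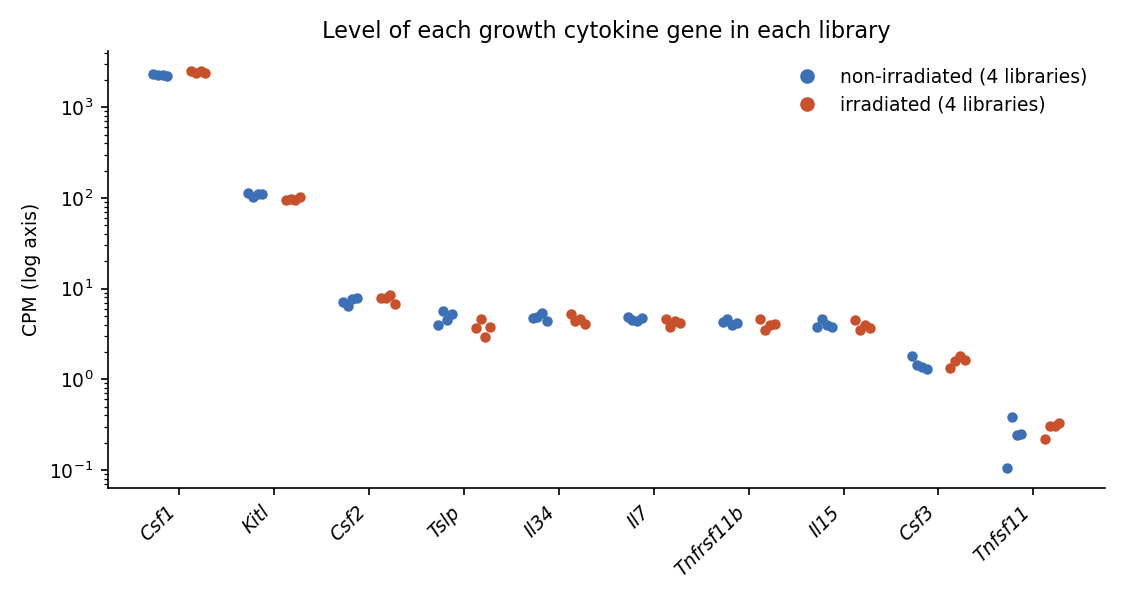
CPM (log axis) of the 10 cytokine genes in each of the 8 libraries, with non-irradiated libraries in blue and irradiated ones in red. Csf1 lies between 2215 and 2536 CPM, Kitl between 94.6 and 113 CPM and the others at 8.42 CPM or less, and the colours separate for Csf1 alone.

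Irradiation changed little in this group. Of the 10 members, 9 had enough counts for the test, 1 was called higher and 0 lower at an adjusted p under 0.05 (edgeR's quasi-likelihood test, Benjamini-Hochberg adjustment over 15259 genes), where 6.74% of all tested genes were called, 2.59% higher and 4.15% lower. Without adjustment, 1 member was higher and 2 were lower at p under 0.05, beside 21.2% of all tested genes in either direction. The groups did not overlap for 1 of the 9 members, where 14.2% of all tested genes did not overlap. With 9 members tested, these counts cannot set the group apart from all tested genes. The median log2 fold change was -0.07 over the 9 members and 0.00 over all tested genes, and the median absolute log2 fold change was 0.11 and 0.09. DESeq2 called 1 member higher and 1 lower, Kitl, and limma-voom called 1 higher and 0 lower. Of all 15259 tested genes, DESeq2 called 539 higher and 775 lower and limma-voom 373 higher and 614 lower, beside 395 and 634 by edgeR.

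**Figure D2:**
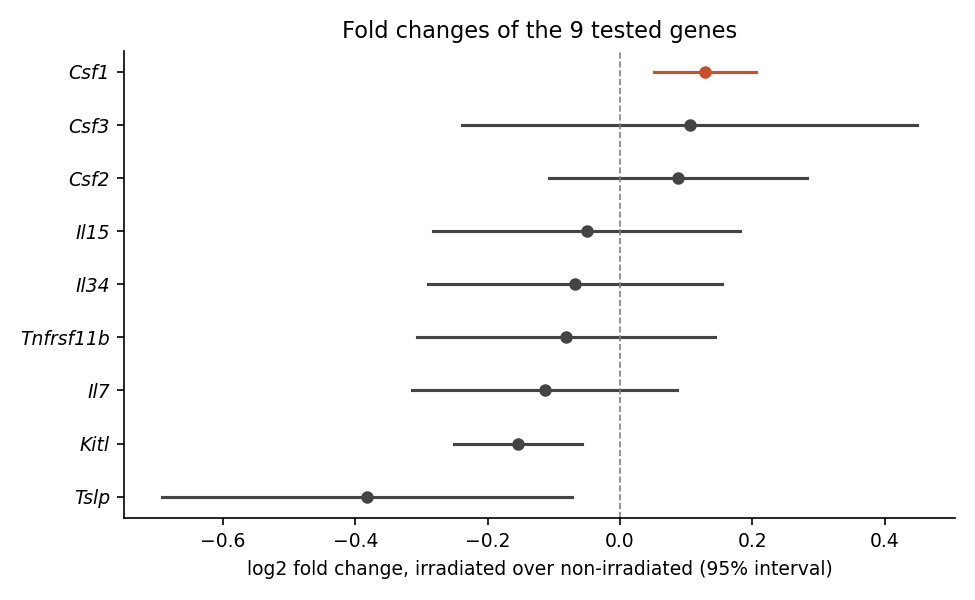
Log2 fold change of irradiated over non-irradiated libraries for the 9 tested members, with the estimate as a point and its 95% interval as a line. The interval of Csf1 (red, called) lies above 0, those of Kitl and Tslp lie below 0 although neither gene was called after adjustment, and the other 6 cross 0.

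The macrophage ligands Csf1 and Il34 share the receptor Csf1r and differed in level; whether their responses differ was not tested. Csf1 (ENSMUSG00000014599, chr3:107741048-107760469, minus strand, protein-coding) had 2314, 2243, 2253 and 2215 CPM in non-irradiated I to IV and 2536, 2405, 2521 and 2406 CPM in irradiated I to IV. All 4 irradiated libraries lay above all 4 others, and the gap between the groups, from 2314 to 2405 CPM, was narrow. Csf1 rose 1.09-fold (log2 fold change 0.13, SE 0.04, 95% interval 0.05 to 0.21, edgeR adjusted p = 0.048). The rise amounts to 211 CPM. Between 66345 and 91683 counts stood behind each value, and the libraries of a group varied by 1.86% and 2.89% (coefficient of variation) where counting error alone gives 0.372% and 0.347%.

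The call of Csf1 was close to the threshold. Of the 8 fits with a single library left out it survived in 1, the fit lacking non-irradiated I (edgeR adjusted p = 0.0425), and was lost without non-irradiated II (0.0589), III (0.0667) or IV (0.104) and without irradiated I (0.127), II (0.0937), III (0.124) or IV (0.0718). Without both irradiated I and II the log2 fold change was 0.13 and the edgeR adjusted p = 0.212. The fold change itself ran from 0.12 to 0.15 on the log2 scale over the 17 other fits.

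**Figure D3:**
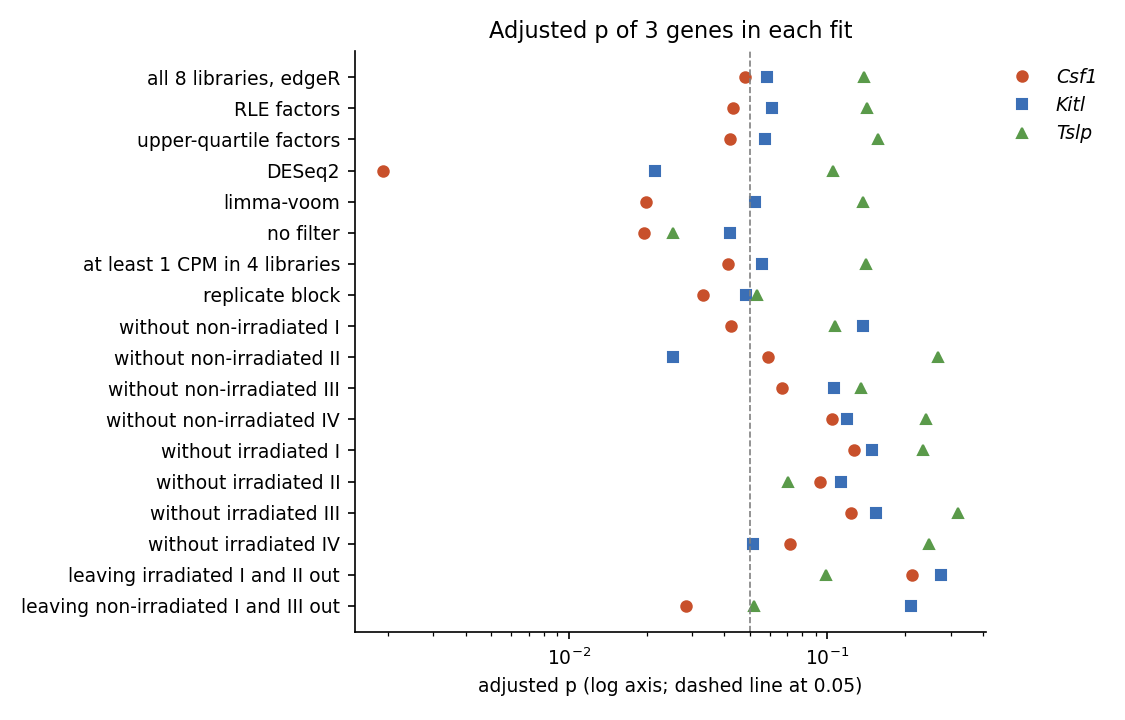
Adjusted p (log axis) of Csf1, Kitl and Tslp in each fit, with the threshold of 0.05 as a dashed line. Csf1 passes in the fit of all 8 libraries and in 9 of the 17 others, Kitl in 4 and Tslp in 1 of those 17, and most fits with a library left out lie to the right of the line.

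The genes with the profile most like that of Csf1 over the 8 libraries, among 10420 tested genes that reached 5 CPM in either group, were Aen, Rgs12 and Slc12a4. Likeness was the root mean square distance of the centred log2 CPM, which was 0.0172, 0.0193 and 0.0223. Aen encodes a nuclease, Rgs12 a regulator of G-protein signalling and Slc12a4 a potassium-chloride cotransporter. Of the 3, Slc12a4 was called (log2 fold change 0.15, edgeR adjusted p = 0.0205), while Aen (0.11, adjusted p = 0.0907) and Rgs12 (0.11, adjusted p = 0.0858) were not.

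Il34 (ENSMUSG00000031750, chr8:110741829-110805924, minus strand) had 4.78, 4.83, 5.33 and 4.35 CPM without and 5.28, 4.42, 4.63 and 4.05 CPM with irradiation, in libraries I to IV. The groups overlapped over most of their range. Its log2 fold change was -0.07 (95% interval -0.29 to 0.15, edgeR adjusted p = 0.762). Per kilobase, Csf1 exceeded Il34 174-fold without irradiation. The exons of Il34 share 97 bases with Gm15894 and Gm15895 on the other strand, which had 4 and 27 counts over all libraries.

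The colony-stimulating factors of the granulocyte lineage were low and did not pass the test. Csf2, which encodes GM-CSF (ENSMUSG00000018916, chr11:54247271-54249667, minus strand), had 7.12, 6.48, 7.72 and 7.78 CPM without and 7.85, 7.93, 8.42 and 6.69 CPM with irradiation. Irradiated IV lay inside the range of the control libraries, and the log2 fold change was 0.09 (95% interval -0.11 to 0.28, edgeR adjusted p = 0.633). The Csf2 exons share 96 bases with Gm12223 on the other strand, which had 6 counts in all. Csf3, which encodes G-CSF (ENSMUSG00000038067, chr11:98701263-98703629, plus strand), had 1.81, 1.43, 1.35 and 1.29 CPM without and 1.33, 1.57, 1.79 and 1.61 CPM with irradiation. The highest single value came from a non-irradiated library. With 41 to 65 counts per library, the interval of its log2 fold change reached from -0.24 to 0.45 (estimate 0.11, edgeR adjusted p = 0.764), which reaches up to a 1.37-fold rise.

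Kitl, the ligand of Kit (ENSMUSG00000019966, chr10:100015630-100100416, plus strand), had 113, 101, 110 and 110 CPM in non-irradiated I to IV and 95.7, 97.4, 94.6 and 103 CPM in irradiated I to IV. Of the irradiated libraries, 3 lay below all controls, and irradiated IV lay above non-irradiated II, which was the lowest control. The means were 109 ± 5.04 and 97.7 ± 3.82 CPM (SD, n = 4). The log2 fold change was -0.15 (SE 0.04, 95% interval -0.25 to -0.06), and the edgeR adjusted p = 0.0585 missed the threshold. Kitl passed without non-irradiated II (0.0252), with DESeq2 (0.0215), without the low-count filter (0.042) and with the replicate numeral as a block (0.0484). Without both irradiated I and II, the edgeR adjusted p was 0.275 and the log2 fold change -0.14.

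The lymphoid cytokines stood at a few CPM each. Tslp, which encodes thymic stromal lymphopoietin (ENSMUSG00000024379), had 4.01, 5.72, 4.47 and 5.23 CPM without and 3.71, 4.60, 2.89 and 3.76 CPM with irradiation. Of the irradiated libraries 3 lay below all controls, and irradiated II lay above non-irradiated I and III. It had the largest fold change of the 9 tested members (log2 fold change -0.38, SE 0.14, 95% interval -0.69 to -0.07), with an edgeR adjusted p = 0.138. It passed in 1 of 17 other fits, that without a low-count filter (0.0253). Its libraries varied by 15.7% and 18.7% where counting error gives 8.11% and 8.99%.

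Il7, a survival factor of lymphocytes (ENSMUSG00000040329, chr3:7569994-7613760, minus strand), had 4.85, 4.45, 4.44 and 4.70 CPM without and 4.65, 3.78, 4.41 and 4.15 CPM with irradiation. Irradiated I lay inside the control range, and the log2 fold change was -0.11 (95% interval -0.31 to 0.09, edgeR adjusted p = 0.53). Its exons share 105 bases with Gm16685 on the other strand, a gene with 3025 counts against 1171 for Il7, and the strand setting of the counting is not given in the sources used here. Il15, which supports natural killer and memory T cells (ENSMUSG00000031712, chr8:82331632-82403222, minus strand), had 3.80, 4.61, 3.98 and 3.81 CPM without and 4.45, 3.51, 3.99 and 3.66 CPM with irradiation. The groups overlapped over most of their range, and the log2 fold change was -0.05 (95% interval -0.28 to 0.18, edgeR adjusted p = 0.842).

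Tnfsf11 (ENSMUSG00000022015, chr14:78277445-78308043, minus strand) was close to the detection limit and was left out of the test. It had 3, 12, 9 and 8 counts in non-irradiated I to IV and 8, 10, 11 and 10 counts in irradiated I to IV, or 32 and 39 counts per group. A library without a count would be compatible with up to 3 counts, or 0.0812 to 0.105 CPM, which is counting error only, and non-irradiated I stood at that limit. Its decoy receptor Tnfrsf11b (ENSMUSG00000063727, chr15:54250619-54278484, minus strand) had 4.29, 4.61, 3.95 and 4.19 CPM without and 4.62, 3.48, 3.94 and 4.02 CPM with irradiation. The irradiated libraries spanned the control range on both sides, with a log2 fold change of -0.08 (95% interval -0.31 to 0.14, edgeR adjusted p = 0.714).

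Counts of the decoy (2818 bases of exon) exceeded those of the ligand (2236 bases of exon) in all 8 libraries. With 0.5 added to each count, there were 35.3, 11.6, 15.4 and 15.7 decoy counts per ligand count in non-irradiated I to IV and 19.7, 11.0, 12.5 and 11.7 in irradiated I to IV. The log2 ratio of ligand to decoy was -4.15 ± 0.69 without and -3.74 ± 0.38 with irradiation (SD, n = 4), and no test was made on it. The difference of 0.41 lies within the SD of the control group and drops to 0.08 without non-irradiated I, the library with 3 counts of Tnfsf11. Without both irradiated I and II the difference was 0.56.

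Several receptor genes for these cytokines were at or near 0 in the fibroblasts, while others were present. Of 15 receptor genes, 9 were tested. Csf2rb2 had 0 counts in every library, Csf2rb 1 count, Il7r 2, Csf3r 5, Kit 14 and Il2rg 24 over all libraries. Csf2rb, Il7r, Csf3r and Kit encode signalling chains for GM-CSF, for IL-7 and TSLP, for G-CSF and for stem cell factor. Il2rg encodes the shared gamma chain. Csf2rb2, a relative of Csf2rb, was on the list but is not a signalling chain for GM-CSF. Csf1r, with 14 to 35 counts per library, stood at 0.125 CPM per kb beside 427 CPM per kb for Csf1, both without irradiation. Sdc1 (syndecan 1, a heparan sulphate proteoglycan that binds IL-34) and Crlf2 (the specific chain of the TSLP receptor) had the highest levels per kilobase, at 42.4 and 5.77 CPM per kb without irradiation. Neither was called, with log2 fold changes of -0.01 (95% interval -0.09 to 0.07, edgeR adjusted p = 0.914) and 0.17 (-0.07 to 0.40, adjusted p = 0.426). Lgr4, a receptor of RANKL, and Csf2ra, the alpha chain for GM-CSF, were also present, at 4.06 and 1.03 CPM per kb without irradiation. For Lgr4 the groups did not overlap, as for 14.2% of all tested genes. Lgr4 was not called (log2 fold change -0.14, 95% interval -0.25 to -0.03, edgeR adjusted p = 0.122).

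**Figure D4:**
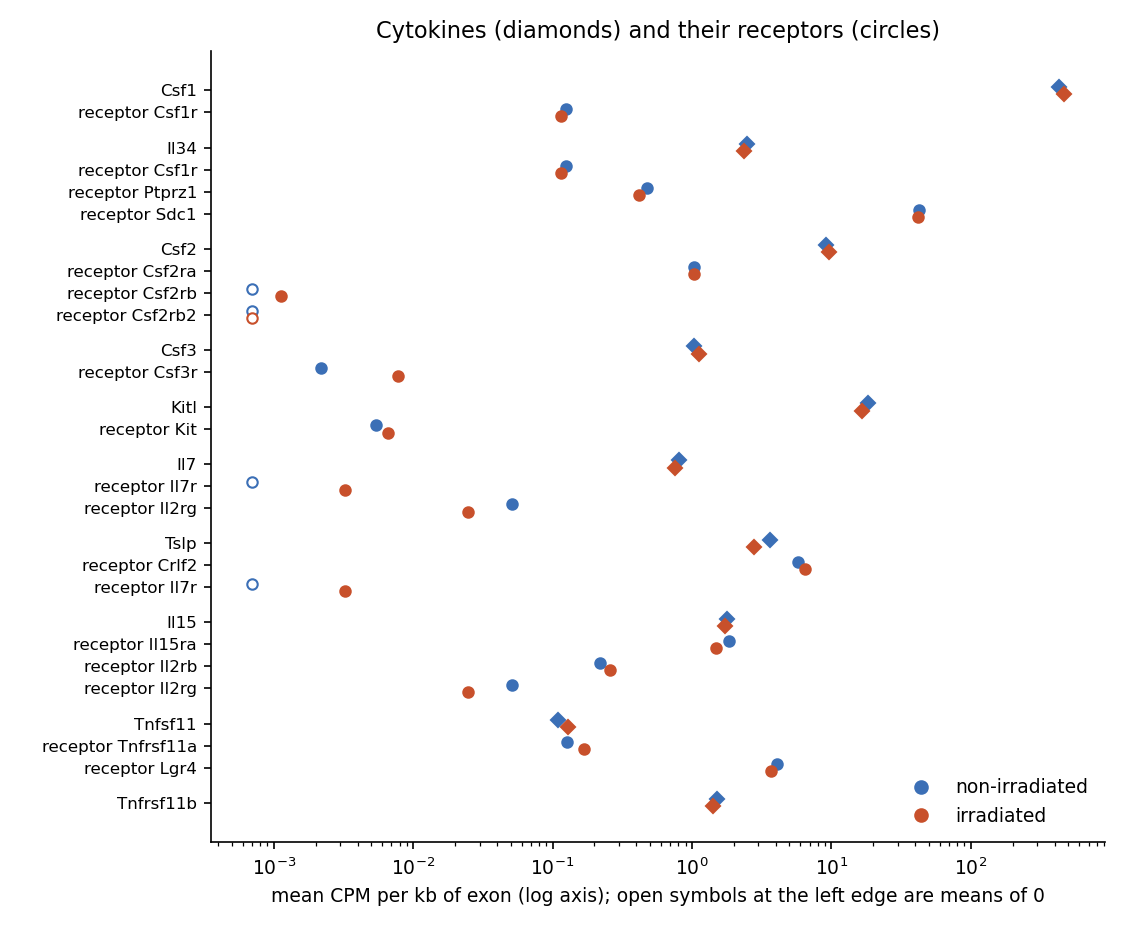
Mean CPM per kb of exon (log axis) of each cytokine gene (diamonds) and of its receptor genes (circles), with non-irradiated means in blue and irradiated means in red; open symbols are means of 0. Csf1 stands far to the right of its receptor Csf1r, Kitl of Kit, and Csf2 of Csf2rb and its relative Csf2rb2. Tslp, Il15, Tnfsf11 and Il34 lie near or below one of their receptors (Crlf2, Il15ra, Tnfrsf11a and Sdc1).

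By edgeR, 1 receptor gene was called lower and 0 higher, where 4.15% and 2.59% of all tested genes were. Without adjustment, 2 were lower and 0 higher at p under 0.05, beside 21.2% of all tested genes in either direction. With 9 receptor genes tested, these counts cannot set the list apart from all tested genes. DESeq2 and limma-voom also called 1 lower and 0 higher. The called gene was Il15ra, whose product presents IL-15 on the cell surface. It had 7.57, 8.84, 8.39 and 7.91 CPM without and 6.75, 6.11, 6.75 and 6.69 CPM with irradiation. All irradiated libraries lay below all controls, and 14.2% of all tested genes likewise had groups that did not overlap. Il15ra fell by 0.32 on the log2 scale (SE 0.08, 95% interval -0.48 to -0.15, edgeR adjusted p = 0.0263), while Il15 itself differed by less than the spread between libraries. Its call was kept without non-irradiated I (0.0261) or IV (0.0448) and lost without any 1 of the other 6 libraries (edgeR adjusted p from 0.0531 to 0.0775) and without both irradiated I and II (0.158). The median log2 fold change of the 9 tested receptors was -0.01.

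Signalling genes downstream of these receptors were present and none was called. All 19 genes of the JAK-STAT and TRAF list were tested, with 0 higher and 0 lower by edgeR, by DESeq2 and by limma-voom. At an unadjusted p under 0.05, 1 was higher and 0 lower. Of all tested genes, edgeR called 2.59% higher and 4.15% lower, and 21.2% had an unadjusted p under 0.05. At these shares a list of this size holds few calls. Their median log2 fold change was 0.03. Jak1, a kinase of the JAK family, had the highest level per kilobase (51.5 CPM per kb) with a log2 fold change of 0.06 (SE 0.03, edgeR adjusted p = 0.271). Stat6, a transcription factor of the same pathway, stood at 44.3 CPM per kb with 0.04 (-0.04 to 0.13, adjusted p = 0.569).

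Of 14 genes for proteins that release, process or retain the ligands, 12 were tested, with 0 called higher and 0 lower by edgeR and a median log2 fold change of -0.01. At an unadjusted p under 0.05, 1 was higher and 0 lower, and DESeq2 and limma-voom each called 1 higher and 0 lower, Mmp14 in both cases. Over all tested genes the edgeR shares were 2.59% higher and 4.15% lower, and 21.2% had an unadjusted p under 0.05. Mmp14, a membrane-type metalloprotease that can cut RANKL from the cell surface, had 649, 621, 689 and 620 CPM without and 716, 708, 695 and 707 CPM with irradiation. The groups did not overlap, as for 14.2% of all tested genes. Its log2 fold change of 0.13 (95% interval 0.05 to 0.22) had an edgeR adjusted p = 0.06. Adam9, a membrane metalloprotease of the ADAM family, had the highest level per kilobase of the list (118 CPM per kb; log2 fold change -0.02, adjusted p = 0.762). Mmp7, another protease that can cut RANKL, had 0 counts in all libraries.

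Among 12 regulators of AU-rich mRNAs, the class to which the Csf2 and Csf3 elements shown above belong, 1 was called higher and 0 lower by edgeR, by DESeq2 and by limma-voom. At an unadjusted p under 0.05, 2 were higher and 1 lower, and the list's median log2 fold change was 0.01. Over all tested genes the edgeR shares were 2.59% higher and 4.15% lower, and 21.2% had an unadjusted p under 0.05. With 12 genes, these counts cannot set the list apart from all tested genes. The called gene was Zfp36, which encodes tristetraprolin, a factor that binds AU-rich elements and promotes the decay of the mRNA. It had 35.4, 35.4, 30.6 and 33.6 CPM without and 40.9, 39.2, 36.4 and 38.7 CPM with irradiation. The groups did not overlap, as for 14.2% of all tested genes. Zfp36 rose 1.15-fold (log2 fold change 0.20, SE 0.06, edgeR adjusted p = 0.0439). Its call was kept without non-irradiated I (0.0457) or II (0.0326) or irradiated III (0.0381), and lost without any 1 of the other 5 libraries (0.0894 to 0.126), with upper-quartile factors (0.0512), without irradiated I and II together (0.314) and without non-irradiated I and III together (0.0897). Without irradiated I and II the list still had 1 gene called higher, but this was Zfp36l2, a relative of Zfp36 that was not called with all 8 libraries (log2 fold change 0.19, edgeR adjusted p = 0.167). Mapkapk2, a kinase that phosphorylates tristetraprolin, and Khsrp, a decay factor, had the highest levels per kilobase (103 and 24.7 CPM per kb) and were not called (edgeR adjusted p = 0.788 and 0.388).

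**Figure D5:**
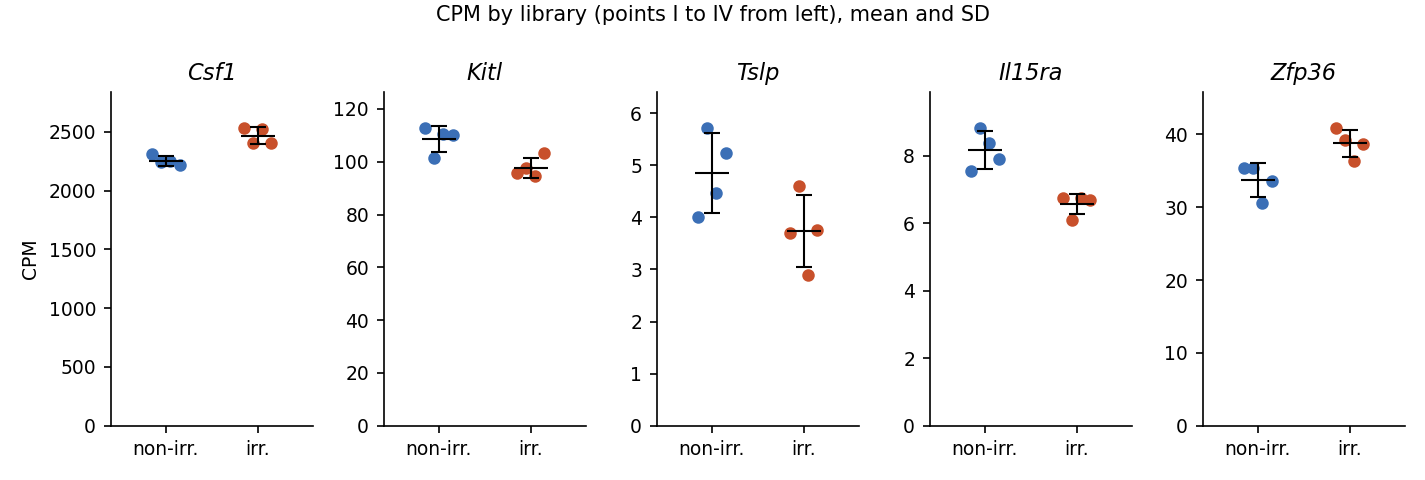
CPM in each library (points, I to IV from left to right in each group) with the mean and SD (black) for Csf1, Kitl, Tslp, Il15ra and Zfp36, on axes that start at 0. The groups separate for Csf1, Il15ra and Zfp36, and overlap for Kitl and Tslp.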

How the data were processed

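The authors deposited raw counts of reads per Ensembl gene, 1 table per library. The submitters' processing notes name featureCounts 1.5.0-p1, STAR 2.5.2a, bcl2fastq 2.20.0.422 and the mm10 build. For annotation release, strand setting and treatment of multimapping reads, nothing is stated in the sources used here. GENCODE M21 gave symbols to 55480 of 55573 genes, and the other 93 held 0.0004% of the counts.

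From these counts, edgeR 4.0.16 (R 4.3.3) was run with TMM factors, filterByExpr (minimum count 10, minimum total 15, 40314 genes left out) and the quasi-likelihood test with group as the sole term, over all 8 libraries. Benjamini-Hochberg adjustment covered 15259 genes, with calls at an adjusted p under 0.05. SE and 95% intervals were derived from the F statistic. CPM per kb used the union of annotated exons. The pipeline was tested on simulated data. Members and lists were chosen with earlier results of these data known. All members were named. From each of 4 pathway lists, every called gene and the 2 with the highest CPM per kb were named, and for each called member the 3 genes with the most like profile. Mmp7, Csf1r, Csf2ra, Lgr4, Zfp36l2 and the receptors at or near 0 counts were named after their values were seen, as were the markers. Alternatives were DESeq2 1.42.0, limma-voom (limma 3.58.1), upper-quartile or RLE factors, other filters, a threshold of 0.01, a replicate block, and omitting each library in turn. Leaving out 2 libraries together, and every alternative for the lists, were chosen after seeing the data.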

Additional observations from a re-analysis of the deposited data

Results flagged for a closer look

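Il15ra in irradiated II, at 6.11 CPM, lay far from the other 3 irradiated libraries, which held 6.69 to 6.75 CPM. Its gap to the nearest library took up 0.907 of the group's range, above Dixon's critical value for 4 samples. Of 42 groups of values checked this way it was the 1 that passed, and chance alone gives about 1 in 20.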

How the results depend on the processing

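The count of members called higher, 1 (Csf1), went to 0 at a threshold of 0.01 and without both irradiated I and II, and ran from 0 to 1 when single libraries were left out. The count of members called lower, 0, became 1 with DESeq2, 2 without the low-count filter (Kitl and Tslp) and 1 with the replicate block, and ran from 0 to 1 without single libraries. Over all genes, 634 were called lower in the main fit, 775 with DESeq2 and 798 of 32976 without the low-count filter. Without single libraries the calls over all genes ran from 221 to 402 higher, against 395, and from 415 to 611 lower. The cause was not tested. Equal numerals were not treated as pairs, since the labels do not link them. The correlations of their deviations ran from -0.09 to 0.33. For non-irradiated I, III and IV the irradiated library with the highest correlation carried the same numeral, and for II it was IV. These values cannot tell whether the libraries are paired. The replicate block moved the calls over all genes from 395 to 550 higher and from 634 to 802 lower. With the block, the edgeR adjusted p was 0.0332 for Csf1, 0.0484 for Kitl, 0.0457 for Il15ra and 0.0115 for Zfp36. Of 153 fold changes of members under the alternatives, 140 kept their side of the threshold. Called receptors went from 1 lower to 0 at a threshold of 0.01 and without both irradiated I and II, and to between 0 and 1 without single libraries. Called proteases went from 0 to 1 higher (Mmp14) with upper-quartile factors, DESeq2, limma-voom, no filter, at least 1 CPM in 4 libraries, and without non-irradiated I and III together, and to between 0 and 1 without single libraries. Called regulators of AU-rich mRNAs went from 1 to 0 higher with upper-quartile factors, at 0.01 and without non-irradiated I and III together, to 2 without a filter (Zfp36 and Zfp36l2), stayed at 1 without both irradiated I and II with Zfp36l2 in place of Zfp36, and went to between 0 and 1 higher and 0 and 1 lower without single libraries. The difference in the log2 ratio of Tnfsf11 to Tnfrsf11b, 0.41, ran from 0.08 to 0.62 without single libraries. It was 0.02 without non-irradiated I and III together and 0.56 without irradiated I and II together. Length of the longest transcript gave the same order of all 10 members. Depth limits Csf3 and Tnfsf11 most.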
